A study of Mus musculus with 36 samples.

Results

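The 9 genes described here mark oligodendrocyte precursor cells and the cells that are newly leaving the precursor state. They were taken by symbol from the deposited gene table, which has 36172 gene entries. Pdgfra, Cspg4 and C1ql1 stand for precursors. Gpr17, Neu4, Bcas1 and Enpp6 stand for differentiating cells. Matn4 and Lhfpl3 are further genes known from the precursor stage. All 9 passed the filter on low counts in every comparison.

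Oligodendrocyte precursor cells persist in the adult hippocampus, where they divide slowly and can give rise to new myelinating oligodendrocytes. Signalling through the PDGF receptor alpha keeps them proliferating and undifferentiated. As a precursor differentiates it lowers Pdgfra and Cspg4, passes through a short premyelinating stage marked by Gpr17, Bcas1 and Enpp6, and then switches on the myelin genes. The transcription factors Olig2 and Sox10 are present throughout the lineage.

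Poly(A) RNA was sequenced from the hippocampus of Cx3cr1-NuTRAP mice in 36 libraries. NuTRAP is a reporter that, after Cre recombination, tags ribosomes with GFP. Cre here is driven by Cx3cr1, a gene of microglia and other macrophages, and is switched on with tamoxifen, so the animals of every group carry both transgenes and were induced. Young mice were 6 months old and old mice 22 months old. Input, the cleared whole-tissue homogenate, was sequenced from 10 young early-induced mice (5 females, 5 males), 12 old early-induced mice (7 females, 5 males) and 7 old late-induced mice (5 females, 2 males). TRAP, the RNA pulled down with an antibody to GFP, was sequenced from the same 7 old late-induced mice, and its libraries are labelled microglia. The ages at tamoxifen are not given in the sources used here, and no young mouse was induced late. The 12 microglial marker genes summed to between 11900 and 19000 on the counts-per-million scale (CPM) in the pulldowns against 647 to 950 CPM in the inputs of the same animals. Total counts per library ran from 12.9 M to 20.4 M. The sample numbers in the labels run in separate blocks for the 3 sets of mice, so any effect of sample handling in that order and the groups cannot be told apart. Young replicates 6 and 10 and old early replicate 5 stood apart by striatum, thalamus or blood genes. Without these 3 libraries the calls on the 9 genes described below were as given, except that Matn4 in old early against young inputs had an adjusted p of 0.0502 (edgeR). Choroid plexus markers varied widely within every input group. Summed over 7 genes they ran from 48.4 to 3130 CPM in young inputs. In old early inputs they ran from 47.9 to 4150 CPM, and in old late inputs from 48.8 to 3530 CPM. Their part in the values of the 9 genes was not tested.

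Neu4 and Enpp6 are both differentiating-cell genes, and with age they moved in opposite directions. Bases upstream of the start of a RefSeq transcript of each are shown for that reason (RefSeq, GRCm38.p6, plus strand, 5′ to 3′). The Enpp6 window ends at the base before that start. The Neu4 window leaves out the last 42 bases before it, from the start of a GENCODE exon on. Entries for 6 of the 9 genes were matched in the promoter table. Capitals mark a motif found on either strand.
Neu4, chr1:94020243-94020450: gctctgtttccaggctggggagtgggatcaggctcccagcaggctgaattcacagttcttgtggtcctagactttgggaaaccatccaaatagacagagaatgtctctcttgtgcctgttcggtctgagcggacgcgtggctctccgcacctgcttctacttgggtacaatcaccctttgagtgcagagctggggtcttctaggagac
Enpp6, chr8:46986637-46986886: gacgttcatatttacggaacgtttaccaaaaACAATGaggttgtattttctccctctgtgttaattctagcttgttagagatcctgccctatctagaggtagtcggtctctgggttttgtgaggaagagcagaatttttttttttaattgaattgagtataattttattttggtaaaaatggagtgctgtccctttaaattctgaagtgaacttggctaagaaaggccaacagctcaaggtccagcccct
The motifs searched were the E-box CAGCTG, a form bound by basic helix-loop-helix factors, and the SOX-type motifs ACAAAG and ACAATG. The 208 bases of Neu4 held none of the 3. The 250 bases of Enpp6 held ACAATG 1 time, which 10.7% of all promoter windows of that length also do. GC content was 54.3% in the Neu4 window and 38.4% in that of Enpp6. These are descriptions of letters only.

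All 9 genes are protein-coding, and their positions are given on mm10 as in the deposited table. Pdgfra spans chr5:75152291-75198204, Cspg4 chr9:56865104-56899870 and C1ql1 chr11:102939264-102946461. Gpr17 spans chr18:31942999-31949636, Neu4 chr1:94020493-94028330, Bcas1 chr2:170346991-170427845 and Enpp6 chr8:46986925-47094895. Matn4 spans chr2:164389393-164405160 and Lhfpl3 chr5:22746193-23275597. Gpr17 overlaps Lims2 on the opposite strand, and whether the counting used strand is not given in the sources used here, so reads of the overlap cannot be told apart. The mean count of Lims2 was 136.8 per library and that of Gpr17 was 524.1.

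Age was compared first in early-induced mice. Among the 4 differentiating-cell genes, Gpr17 and Neu4 fell and Bcas1 and Enpp6 rose in old inputs. Of the 3 precursor genes Cspg4 rose, and Pdgfra and C1ql1 did not pass the test. Matn4 also rose. In all, 6 of the 9 genes were called at an adjusted p under 0.05 (edgeR's quasi-likelihood test, Benjamini-Hochberg over 14948 genes), against 25.6% of all genes tested. By direction, 4 of 9 were higher, against 13% of all genes, and 2 of 9 were lower, against 12.6%.

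Against the same young mice, old late-induced inputs also had 6 of the 9 genes called, 4 higher and 2 lower. The background was larger here, with 34.5% of all genes called, 17% higher and 17.5% lower. Both age comparisons use the same young libraries, so they are not independent of each other. In bulk tissue, fewer cells of a type and less RNA per cell cannot be told apart.

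**Figure D1:**
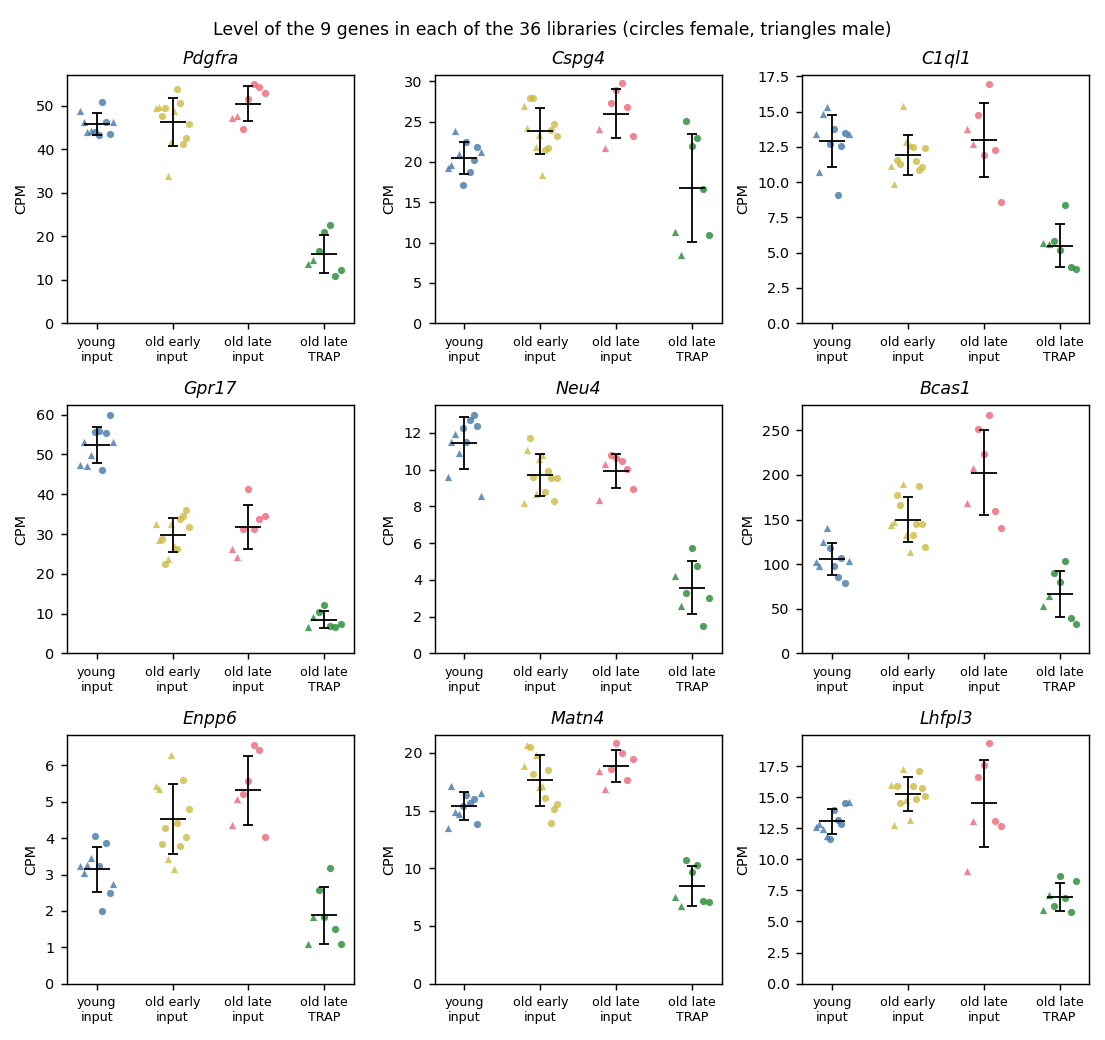
Level of each of the 9 genes in CPM (linear axis from 0) in the 36 libraries, by group. Points are libraries (circles female, triangles male) and bars are mean ± SD. For Gpr17 every old input lies below the lowest young input of 46.1 CPM, and for Bcas1 every old late input lies above the highest young input of 140.1 CPM.

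Pdgfra, the receptor for PDGF that defines the precursor, had levels between 43.4 and 50.8 CPM in the 10 young inputs (median 45.2). The 12 old early inputs lay between 33.8 and 53.8 CPM (median 48.2) and the 7 old late inputs between 44.6 and 54.95 CPM (median 51.5). The old ranges overlap that of the young, and 1 old early library lies well below the rest. The log2 fold change was 0.01 ± 0.06 (SE; adjusted p = 0.919, edgeR) in early-induced and 0.12 ± 0.07 (adjusted p = 0.138) in late-induced old mice against young. When only young and old late inputs were fitted, the late value was 0.13 with an adjusted p of 0.0466 (edgeR). Fibroblasts also express Pdgfra. Summed over 8 fibroblast markers, levels ran from 95.2 to 314 CPM in young and 95.6 to 479 CPM in old early inputs. In old late inputs they ran from 120 to 405 CPM. The part of fibroblast RNA in the Pdgfra values was not tested.

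Cspg4 encodes the NG2 proteoglycan of the precursor surface, which pericytes also carry. It averaged 20.5 ± 1.97 CPM (SD) over the 10 young inputs, 23.8 ± 2.83 over the 12 old early ones and 25.99 ± 3.01 over the 7 old late ones. The ranges overlap, with 6 of 12 old early and 5 of 7 old late libraries above the highest young one at 23.8 CPM. The log2 fold change was 0.21 ± 0.07 (adjusted p = 0.0228, edgeR) in early-induced and 0.32 ± 0.08 (adjusted p = 0.002) in late-induced mice. Without young replicate 5 or 8 the early call was lost (adjusted p = 0.051 and 0.054), as it was in females alone (0.0525). The summed level of 8 mural-cell markers ran from 86.7 to 119 CPM in young, 91.8 to 159 in old early and 111 to 135 in old late inputs. In each age comparison 2 of 7 tested markers were higher, against 13% and 17% of all genes tested. The part of mural cells in the Cspg4 result was not tested.

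C1ql1 encodes a secreted C1q-like protein. Its mean was 12.93 ± 1.85 CPM in young, 11.9 ± 1.40 in old early and 12.98 ± 2.62 in old late inputs, with overlapping ranges. The log2 fold changes were -0.11 ± 0.09 (adjusted p = 0.401, edgeR) and 0.02 ± 0.11 (adjusted p = 0.896). Neither passed the test.

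Gpr17, an orphan-type receptor that marks cells just committed to differentiate, showed the clearest separation by age. Young inputs lay between 46.1 and 59.8 CPM (median 53.2), old early inputs between 22.4 and 35.96 CPM (median 30.2) and old late inputs between 24.3 and 41.2 CPM (median 31.3). All 12 old early and all 7 old late libraries were below every young library. Old early and young ranges did not overlap for 1.85% of all genes tested, and old late and young ranges for 6.81%. The log2 fold change was -0.83 ± 0.07 (adjusted p = 2.4e-09, edgeR) in early-induced and -0.77 ± 0.09 (adjusted p = 1.06e-07) in late-induced mice. Under the alternatives tried, apart from single libraries left out, the value ranged from -0.84 to -0.80 and from -0.78 to -0.67. Lims2, the overlapping gene, had log2 fold changes of -0.15 (adjusted p = 0.224) and -0.17 (adjusted p = 0.192).

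Neu4, a sialidase of the early lineage, moved less. Its mean fell from 11.4 ± 1.40 CPM in young to 9.73 ± 1.14 in old early inputs, and it was 9.93 ± 0.92 in old late inputs. The ranges overlap, with 2 of 12 old early and 1 of 7 old late libraries below the lowest young one. Its log2 fold change was -0.24 ± 0.07 (adjusted p = 0.0154, edgeR) and -0.23 ± 0.09 (adjusted p = 0.0353). The second call was lost without old late replicate 1, 6 or 7 (adjusted p = 0.0813, 0.0516 and 0.0613), and also without young replicate 3, 5, 7 or 8 (0.0539, 0.0502, 0.059 and 0.0527).

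Bcas1, a protein of early myelinating cells that mature oligodendrocytes also express, rose. Young inputs lay between 78.9 and 140.1 CPM (median 102.8), old early inputs between 113.8 and 189.5 CPM (median 145.5) and old late inputs between 140.4 and 267.0 CPM (median 208.2). Every old late library lay above every young one, and 8 of 12 old early libraries did. The fold change on the log2 scale was 0.51 ± 0.11 (adjusted p = 0.000878, edgeR) and 0.94 ± 0.12 (adjusted p = 1.41e-06).

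Enpp6, a choline phosphodiesterase that marks newly forming oligodendrocytes, had the fewest reads of the 9, with 15.2 to 114.1 counts per library. Its mean was 3.14 ± 0.61 CPM in young, 4.53 ± 0.96 in old early and 5.32 ± 0.95 in old late inputs. Above the highest young value of 4.07 CPM lay 7 of 12 old early and 6 of 7 old late libraries. On the log2 scale the fold change was 0.53 ± 0.13 (adjusted p = 0.00265, edgeR) and 0.75 ± 0.15 (adjusted p = 0.00019). In females alone the early-induced value was 0.49 with an adjusted p of 0.0954 (edgeR).

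Matn4, an extracellular matrix protein, averaged 15.4 ± 1.18 CPM in young, 17.6 ± 2.18 in old early and 18.8 ± 1.37 in old late inputs. Its log2 fold changes were 0.20 ± 0.06 (adjusted p = 0.025, edgeR) and 0.30 ± 0.07 (adjusted p = 0.00266). The early call was lost without young replicate 1 or 9 or old early replicate 2, 3 or 5 (adjusted p = 0.0513, 0.0586, 0.0606, 0.0556 and 0.0573), and in females alone (0.453). Lhfpl3, a tetraspan membrane protein, averaged 13.1 ± 1.03, 15.2 ± 1.37 and 14.5 ± 3.52 CPM in the same order. Its log2 fold changes were 0.21 ± 0.08 (adjusted p = 0.056) and 0.11 ± 0.10 (adjusted p = 0.405), and neither passed. The early one did pass when young and old early inputs were fitted alone (adjusted p = 0.00975), with upper quartile scaling (0.0412) and with DESeq2 (0.0445). It also passed without old late replicate 1 (0.0294) or 5 (0.0436), or young replicate 10 (0.0369).

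**Figure D2:**
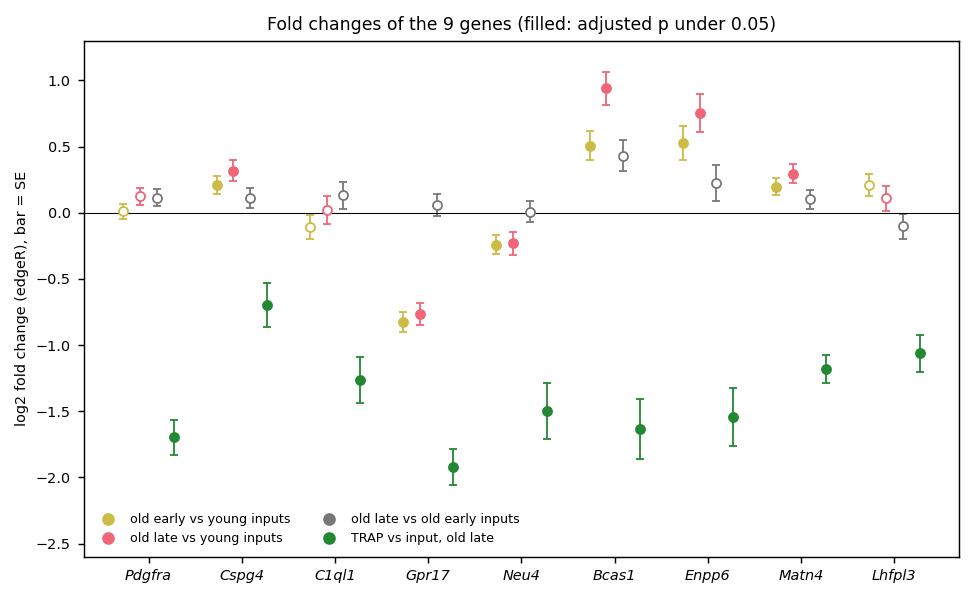
Log2 fold change of each gene (edgeR, bar = SE) in 4 comparisons, with filled points for adjusted p under 0.05. Gpr17 and Neu4 lie below 0 and Bcas1 and Enpp6 above 0 in both age comparisons, while all 9 genes lie below 0 in TRAP against input.

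Precursor and differentiating genes were then set against each other within each library. The mean log2 CPM of the 4 differentiating genes minus that of the 3 precursor genes averaged -0.12 ± 0.15 over the 10 young inputs (SD), -0.16 ± 0.14 over the 12 old early and -0.09 ± 0.12 over the 7 old late ones. Only shifts of this index between groups can be read, since read counts also depend on gene length. The shifts with age, -0.04 and 0.03, were smaller than the spread between libraries. Within this average the 4 differentiating genes moved in opposite directions. The pairs Bcas1 with Enpp6 and Gpr17 with Neu4 were formed after the values were seen, so their difference is a description. Mean log2 CPM of Bcas1 and Enpp6 minus that of Gpr17 and Neu4 ran from -0.93 to -0.07 in young, from 0.16 to 0.87 in old early and from 0.44 to 1.21 in old late inputs. Gpr17 minus Pdgfra, both on the log2 CPM scale, averaged 0.19 ± 0.18 in young, -0.63 ± 0.28 in old early and -0.68 ± 0.22 in old late inputs. Using the median over genes in place of the mean, the index shifted by -0.73 and -0.80 with age, and without Bcas1 by -0.22 and -0.22. In every input Bcas1 was the highest and Enpp6 the lowest of the 4, and Cspg4 was the middle of the 3 precursor genes. The median index of an input is therefore the mean of Gpr17 and Neu4 minus Cspg4, and leaves out Bcas1 and Enpp6.

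**Figure D3:**
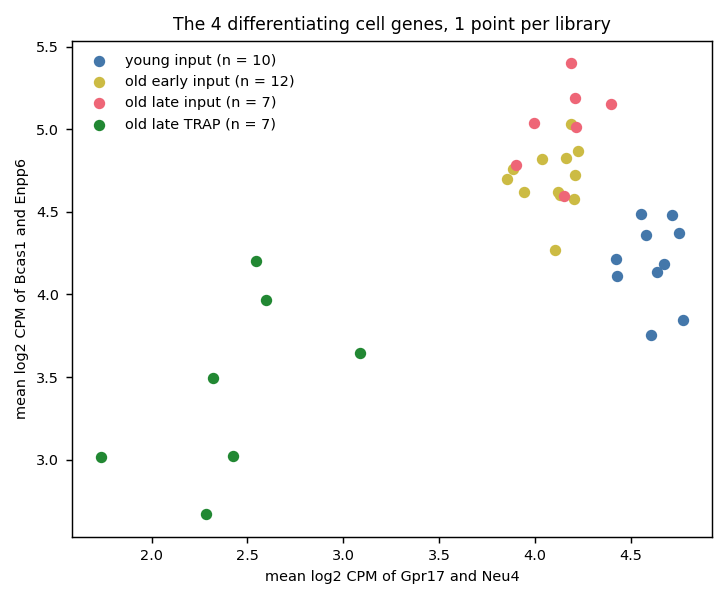
Mean log2 CPM of Bcas1 and Enpp6 (vertical) against mean log2 CPM of Gpr17 and Neu4 (horizontal), 1 point per library, coloured by group. Young inputs lie to the lower right of the old inputs, and the 7 TRAP libraries lie apart at the lower left.

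Other genes of the lineage gave the setting for these values. Of 11 lineage transcription factors tested, 5 rose and 1 fell in old early inputs, and 6 rose and 1 fell in old late inputs. Of all genes tested, 13% were called higher and 12.6% lower in old early inputs, and 17% and 17.5% in old late inputs. Nkx6-2, a homeodomain factor of maturing oligodendrocytes, rose by 0.80 ± 0.08 and 0.96 ± 0.09 on the log2 scale. Sox10, the lineage factor that activates myelin genes, rose by 0.54 ± 0.08 and 0.68 ± 0.09, and Olig1 by 0.17 ± 0.05 and 0.23 ± 0.05. Zfp488, a zinc finger co-repressor of the lineage, fell by 0.38 and 0.35. The median over the list was 0.07 and 0.17, against 0.01 and 0.01 over all genes tested.

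Of 11 other precursor genes tested, 1 rose and 3 fell in old early inputs, and 1 rose and 5 fell in old late inputs. The riser was Ccnd1, a cyclin that many cell types express (0.34 ± 0.06 and 0.26 ± 0.07). Tnr, the matrix protein tenascin-R, fell by 0.45 and 0.80, and Epn2, an endocytic adaptor, by 0.13 and 0.22. Vcan, a matrix proteoglycan, fell by 0.36 and 0.30. Kcnd3, a potassium channel, fell by 0.19 in late-induced mice. Of 13 other newly formed cell genes tested, 4 fell in old early inputs and 3 in old late inputs. Beside the counts of both lists, 12.6% and 17.5% of all genes tested were called lower, and 13% and 17% higher. Fyn, a kinase of early differentiation, fell by 0.10 and 0.12, Tmem2, a hyaluronidase, by 0.24 and 0.23, and Mycl by 0.17 and 0.39. The noncoding transcript 9630013A20Rik fell by 0.86 ± 0.28 in early-induced mice (adjusted p = 0.0239, edgeR), from a mean of 0.88 to 0.47 CPM. The medians were -0.13 and -0.19 for the precursor list and -0.15 and -0.08 for the newly formed cell list. In TRAP against input, Tnr changed by -0.15, Epn2 by -0.19, Kcnd3 by -0.12 and Fyn by -0.25 on the log2 scale. Tmem2 changed by -0.02, Mycl by 0.30 and Vcan by -0.98. Pdgfra changed by -1.70 there, and the median of the neuron markers was -0.21. The cell types behind these falls with age were not tested.

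Among 5 PDGF ligands and receptors other than Pdgfra, Pdgfa, the ligand of the Pdgfra receptor, rose by 0.24 ± 0.05 (adjusted p = 0.00129, edgeR) and 0.38 ± 0.06 (adjusted p = 2.22e-05). Its mean was 31.6 CPM in young, 37.02 in old early and 40.3 in old late inputs. Pdgfrb, a mural-cell receptor, rose by 0.32 and 0.27. Of 8 genes that hold back differentiation, 2 were called lower in early-induced and 1 in late-induced mice, and none higher. Over all genes tested, 12.6% and 17.5% were called lower. Lrp6, a Wnt co-receptor, fell by 0.26 and 0.29, and Jag1, a Notch ligand, fell by 0.33 in early-induced mice. The medians of the 8 genes were -0.007 and 0.05.

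Myelin genes rose beside Bcas1 and Enpp6. For the counts that follow, the shares of all genes tested were 13% higher and 12.6% lower in old early inputs. In old late inputs they were 17% and 17.5%. Of 14 markers of myelinating oligodendrocytes 12 rose in old early and 13 in old late inputs, with medians of 0.38 and 0.56. The largest were Gjb1, a myelin gap junction protein (1.03 ± 0.10 and 1.21 ± 0.11), and Trf, transferrin (0.74 ± 0.08 and 1.01 ± 0.09). Their summed level ran from 3540 to 5400 CPM in young, 4680 to 6680 in old early and 5010 to 8230 in old late inputs. The part of mature oligodendrocyte RNA in the Bcas1 and Enpp6 values was not tested. The microglial markers also rose, 11 of 12 and 12 of 12, and summed to 460 to 535, 606 to 733 and 647 to 950 CPM in the 3 input groups. Of 9 neuroblast and cycling-cell genes tested, 5 fell in old early inputs, with a median of -0.34, and 2 fell in old late inputs, with a median of -0.17. Among them Mki67, a marker of dividing cells with few reads (average log2 CPM 0.82), fell by 0.78 and 0.63. Other cycling-cell genes were not called in old late against young inputs: Top2a (-0.02), Ccnb1 (-0.43) and Birc5 (-0.50). Cdk1 was not tested there. The sum over the neuroblast and cycling-cell list ran from 57.7 to 72 CPM in young, 45.5 to 59.6 in old early and 48.7 to 64.2 in old late inputs. Of 4 blood genes tested, 2 rose in old early inputs (median 0.93) and 4 in old late inputs (median 1.47). The part of either list in the values of the 9 genes was not tested.

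**Figure D4:**
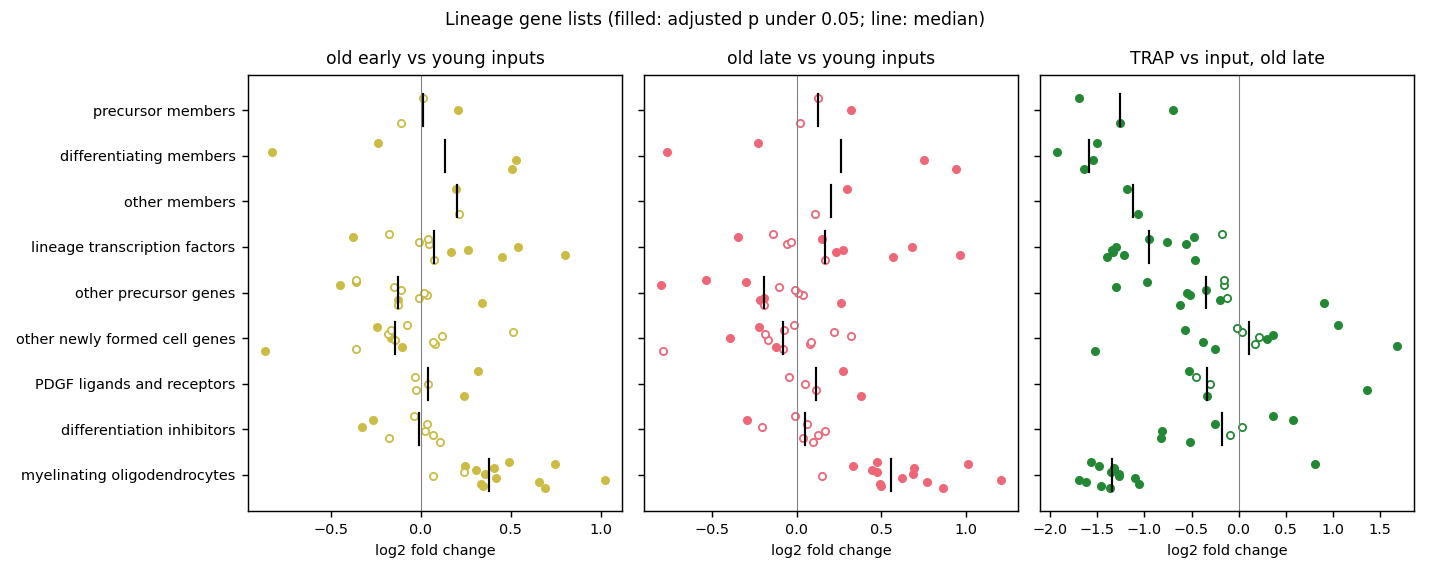
Log2 fold changes (edgeR) of the genes tested in 9 lists in both age comparisons and in TRAP against input, 1 point per gene, filled for adjusted p under 0.05, with a line at each list's median. The 4 differentiating genes fall on both sides of 0 with age, whereas the myelin list lies to the right of 0 (medians 0.38 and 0.56).

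Induction age was compared in old mice. None of the 9 genes was called between old late and old early inputs (edgeR), and 0.0334% of all genes tested were (0.0268% higher, 0.00669% lower). DESeq2 and limma voom also called none of the 9. Of the 9, Bcas1 had the smallest p, with a log2 fold change of 0.43 ± 0.12 (p = 0.000873, adjusted p = 0.162, edgeR). Without old early replicate 5 the Bcas1 value was 0.46 with an adjusted p of 0.0412 (edgeR). Enpp6 had 0.22 ± 0.14 (adjusted p = 0.537), and the other 7 lay between -0.10 and 0.13. For Gpr17 the value was 0.06 ± 0.08 (adjusted p = 0.816). This comparison is also the test of whether the 2 age effects differ, since both are taken against the same young mice.

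Sex was compared over the 29 inputs with group in the model. None of the 9 genes was called (edgeR), and 0.174% of all genes tested were (0.0468% higher in males, 0.127% lower). DESeq2 and limma voom called none of the 9 either. Gpr17 had the smallest p of the 9, with a log2 value of -0.16 ± 0.07 for males against females (p = 0.0174, adjusted p = 0.37, edgeR). Mean Gpr17 levels were 54.5 CPM in 5 young females and 50.2 in 5 young males, and 34.4 in 5 and 25.3 in 2 old late-induced females and males. In old early-induced mice they were 30.5 CPM in 7 females and 28.9 in 5 males.

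TRAP was compared with input in the old late-induced mice, to ask what the microglial pulldown does to RNA of this lineage. All 9 genes were lower in TRAP (edgeR, 14596 genes tested), against 28.8% of all genes called lower, 30.4% called higher and 59.2% called in either direction. This fit had no term for the animal, although both fractions came from the same 7 mice. With the animal as a block, all 9 were also called lower. Gpr17 fell most, by 1.92 on the log2 scale, and Cspg4 least, by 0.69. The median over all genes was -0.02. With upper quartile scaling that median was -0.17 and with library size alone -0.13. The split of calls moved with it, from 4442 higher and 4198 lower genes to 3280 and 6372, and to 3564 and 5748. All 9 genes stayed lower under each of these scalings.

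Gpr17 had between 6.57 and 12.2 CPM in the 7 pulldowns (median 7.40). Each pulldown held 20% to 37.5% of the level in the input of its own animal. Its log2 fold change was -1.92 ± 0.13 (adjusted p = 1.99e-09, edgeR). Lims2 fell by 0.37 (adjusted p = 0.0243). Pdgfra lay between 10.9 and 22.6 CPM (median 14.4), or 20.1% to 41.2% of input, with a log2 fold change of -1.70 ± 0.13 (adjusted p = 9.3e-09). Both genes were lower in 7 of 7 animals, with no overlap of the groups.

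For Cspg4 the pulldown level lay between 8.51 and 25.1 CPM (median 16.7), overlapping the inputs. By animal it was 46.7%, 39.1%, 91.9%, 76.0%, 77.2%, 62.2% and 47% of input for replicates 1 to 7. The fold change on the log2 scale was -0.69 ± 0.17 (adjusted p = 0.00172, edgeR), and it ranged from -0.84 to -0.50 under the alternatives. In the same libraries 4 of 7 mural-cell markers were lower, with a median of -0.52, and their part in the Cspg4 value was not tested.

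Of the rest, Bcas1 fell by 1.64, Enpp6 by 1.54, Neu4 by 1.50, C1ql1 by 1.26, Matn4 by 1.18 and Lhfpl3 by 1.06 on the log2 scale. Median shares of input were 31.8%, 33.1%, 34%, 43.7%, 40.9% and 49.4%. For 8 of the 9 genes, all but Cspg4, every pulldown lay below every input, as it did for 9.87% of all genes tested. The index of differentiating against precursor genes was -0.53 ± 0.18 in TRAP against -0.09 ± 0.12 in input, and 6 of 7 pulldowns lay below the lowest input. Taken as a median over genes, the index shifted by -0.81 in TRAP. The 3 precursor genes were not alike here, as Cspg4 fell by 0.69, C1ql1 by 1.26 and Pdgfra by 1.70. The 4 differentiating genes fell by 1.50 to 1.92. The part of Cspg4 alone in the shift of the index was not tested. Pulldown replicates 6 and 7 were each lowest of the 7 for 3 of the 9 genes, and replicate 5 was highest for 4.

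**Figure D5:**
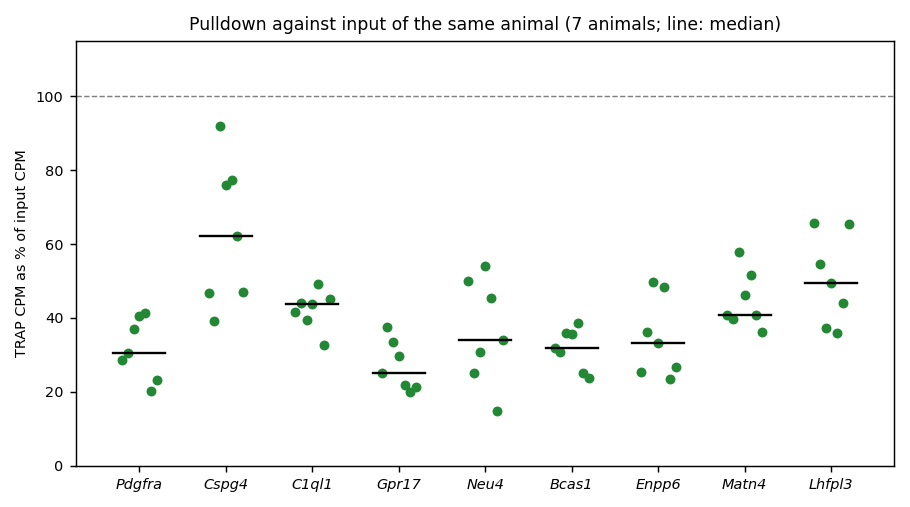
TRAP level as a percentage of the input level (CPM) of the same animal for each of the 9 genes, with 7 points per gene and a line at the median. The dashed line marks equal levels. Gpr17 has the lowest median (25.1%) and Cspg4 the highest (62.2%).

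Among the other lineage lists in the pulldown, transcription factors and myelin genes were mostly lower and the newly formed cell genes were split. Of 11 transcription factors 10 fell, among them Olig2 (by 1.34), Olig1 (1.33), Sox10 (1.3) and Sox8 (0.95), and 13 of 14 myelin markers fell, with a median of -1.34. Trf was the exception, at 0.81 ± 0.11. Of 11 other precursor genes 7 fell, led by Ptprz1, a receptor phosphatase (by 1.3), and Ccnd1 rose by 0.90 ± 0.08. Of 12 other newly formed cell genes 4 rose and 4 fell, near the 30.4% and 28.8% of all genes tested, with a median of 0.10. The risers included Itpr2, a calcium release channel (1.68 ± 0.09), Tns3, an adhesion adaptor (1.05 ± 0.11), and Rras2, a small GTPase (0.36 ± 0.08). Of 5 PDGF ligands and receptors, Pdgfb rose by 1.36 ± 0.08, while Pdgfrb fell by 0.52 and Pdgfa by 0.34. Of the 8 genes that hold back differentiation 2 rose and 4 fell, with Lrp6 at 0.58 and Hes5, a Notch target, at -0.83. The 12 microglial markers all rose, with a median of 4.28. All 8 endothelial-cell markers rose too, with a median of 1.18. The cell types behind the Pdgfb rise were not tested. Fibroblasts also express Pdgfra, and 6 of 8 fibroblast markers fell, with a median of -1.24.

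From mouse to mouse within groups, Pearson's r of log2 CPM over the 29 inputs, after group means were removed, ran from -0.42 to 0.50 over the 36 pairs of the 9 genes, with a median of 0.11. The highest value was that of C1ql1 with Bcas1. Among the rest, r was 0.05 between Gpr17 and Pdgfra, 0.04 between Pdgfra and Cspg4, -0.42 between Pdgfra and C1ql1, 0.37 between Enpp6 and Bcas1 and 0.35 between Gpr17 and Lhfpl3. These are descriptions only. The 29 inputs differed in total counts (12.9 M to 18.4 M) and in their levels of choroid plexus and blood genes. The part of these differences in r was not tested. Among 13052 genes with a mean log2 CPM over 1, those most like Pdgfra were Hps1, Dalrd3, Slc27a1, Sfswap and Akap8l (r from 0.72 to 0.70). Those most like Gpr17 were Snx14, Fbxl20, Gpr3, Hspa4l and Tab3 (0.74 to 0.69), and those most like Enpp6 were Gab1, Ttyh2, Prrx1, Mmgt1 and Gjb1 (0.73 to 0.63). In the old late inputs, replicate 5 was the highest library for 6 of the 9 genes.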

How the data were processed

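The 9 genes, the gene lists and the tests were chosen with earlier results of these data known. Per the labels, poly(A) RNA was sequenced from input and TRAP fractions. The submitters' processing notes name mm10 and DESeq2. The aligner, the counter and the use of strand are not given in the sources used here. The deposited values are estimated counts per gene made by the authors, and 77.2% of the nonzero values are not whole (tolerance 1e-06). They were rounded for testing.

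Levels are CPM of the deposited values with TMM scaling over all 36 libraries. edgeR 4.0.16 in R 4.3.3 (filterByExpr by group, minimum count 10, TMM, quasi-likelihood test, Benjamini-Hochberg over all genes tested, calls at adjusted p under 0.05) was fitted to the 29 inputs with group and sex, and to the 14 old late libraries with fraction and sex. SE is the fold change divided by the square root of F. Log2 CPM used a prior count of 2. DESeq2 1.42.0 and limma 3.58.1 were alternatives, with other scalings, no filter, females only, no sex term and each library left out. Young replicates 6 and 10 and old early replicate 5, set apart by striatum, thalamus and blood genes in earlier results, were also left out together, a choice made after seeing the data.

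The deposited table lists Myrf, Sapcd2, Map2 and Acta2 at 0 in every library. Map2 is a gene of all neurons, so these entries may be rows to which no reads were assigned, and nothing is read from them. Libraries of a group differed by more than sampling noise (chi-square per degree of freedom at least 3.66), so none was counted as a duplicate. The labels give an animal number for every library, and each old late-induced input shares its number with a TRAP library. Same-animal input and TRAP libraries deviated together (r = 0.308 to 0.47 in 7 pairs, against a median of -0.086 between animals). On simulated data, the fit recovered 71% of genes changed by 0.5 and 93% of those changed by 1 (log2) for old early against young inputs (14866 genes). Of its calls there 6.82% were false. For TRAP against input (14528 genes) it recovered 63% and 91%, and 7.23% of its calls were false. Named genes are all 9 genes, up to 4 called genes per list and comparison by smallest p, and the 5 genes most like Pdgfra, Gpr17 and Enpp6.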

Additional observations from a re-analysis of the deposited data

How the results depend on the processing

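Gpr17 and Bcas1 in both age comparisons, and the 9 genes in TRAP against input, kept direction and call under every alternative run, single libraries left out included. With the animal as a block, TRAP against input called 9330 genes and all 9 genes stayed lower. For the input groups, no paired analysis was possible because they are different animals. For old late against young inputs, the genes called lower numbered 1 in place of 2 under upper quartile scaling, with no filter and with no sex term, and 1 to 2 with a library left out, since Neu4 dropped out. In females alone, age called 1198 genes (early-induced, 1 of the 9 higher) and 2787 (late-induced), with fewer libraries. Old late against old early inputs called 5 genes, but 58 with DESeq2, 0 with only those groups, 182 in females, 110 without the 3 libraries set apart and 0 to 164 with a library left out (0 to 1 of the 9 higher). Sex called 26 genes, 64 with DESeq2, 12 in early-induced mice alone and 17 to 32 with a library left out. The index shifted by -0.734 and -0.799 with age and by -0.812 in TRAP when taken as a median over genes, and by -0.215 and -0.218 with age without Bcas1. In inputs the median index is set by Gpr17, Neu4 and Cspg4 alone. The cause of the other changes was not tested. Values near 0 that did not pass the test changed sign. For sex, Enpp6 was -0.002141 with voom and -0.05596 to 0.04367 with a library left out, and Bcas1 was -0.03101 without the 3 libraries and -0.02256 to 0.05453. For old late against old early, Lhfpl3 was 0.02365 in females, Gpr17 -0.002291 to 0.1058 and Neu4 -0.01752 to 0.04146. C1ql1, old late against young, was -0.001295 with no sex term and -0.06029 to 0.0823, and Pdgfra, old early against young, -0.01628 to 0.0394. Among the 9, Enpp6 had the lowest counts (from 15.2 per library) and the largest SE in the input comparisons.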
